A study of Homo sapiens with 6 samples.

Results

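The genes of 10 neutrophil granule proteins (MPO, ELANE, AZU1, PRTN3, CTSG, LYZ, RNASE2, RNASE3, LTF and CST7) were examined in the H3K27ac peak lists of 2 human acute myeloid leukemia (AML) cell lines. They were chosen by name, as genes that make the contents of myeloid granules, out of 20007 protein-coding genes. For each gene, the peaks within its body and the 20 kb on each side (called the gene region here) and those within 2500 bases to each side of its canonical start of transcription (the promoter window) were counted, and the bases under them were summed. H3K27ac is acetylated lysine 27 of histone H3, a mark of active promoters and enhancers, and was mapped by CUT&Tag, in which an antibody guides a transposase to cut and tag the surrounding DNA.

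The study asked how loss of ANP32B, a nuclear protein that binds histones, alters this mark. Kasumi-1 cells, which carry the RUNX1::RUNX1T1 fusion, and MV4-11 cells, which carry a KMT2A fusion, were each compared as NC and sh-ANP32B. NC cells (the control) carried a control short hairpin RNA and are given as untreated in the labels, and sh-ANP32B cells (the knockdown) carried a hairpin against ANP32B. Each of the 4 groups had 1 library whose peaks were called on merged replicates, and 2 further IgG libraries, 1 per line, were not analysed here. Which hairpin, how long the knockdown lasted and whether the cells were a pool or a clone are not given for these libraries. The lists therefore hold no spread between replicates, every difference below compares these libraries without a test, and more acetylation per cell cannot be told apart from more cells with the mark. A hairpin acts on the transcript, so that peak lists hold no check of the knockdown itself.

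Neutrophil granules form in waves as a myeloid precursor matures. The azurophil granules of the promyelocyte hold myeloperoxidase (MPO), the serine proteases elastase (ELANE), proteinase 3 (PRTN3) and cathepsin G (CTSG), their inactive relative azurocidin (AZU1), and lysozyme (LYZ), while lactoferrin (LTF) is a protein of the later specific granules. RNASE2 and RNASE3 encode ribonucleases best known from eosinophil granules, and CST7 encodes cystatin F, an inhibitor of the cysteine cathepsins that activate the serine proteases. Transcription factors of the C/EBP, PU.1, RUNX and MYB families are known to drive several of these genes. Both lines are AML cell lines and not mature neutrophils.

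The 300 bases from 250 before to 50 after the start are shown for 5 genes. Sequences are from RefSeq on GRCh38.p14, where 6 of the 10 genes had an entry. LTF also had an entry and is not printed, and its stretch lay under no peak in any library. Capitals mark letters of any motif searched on both strands: for C/EBP the palindrome TTGCGCAA and the loose form TTNNGNAA, for PU.1 the long form GAGGAAGT and its short form GAGGAA, for MYB either AACTG or the variant AACGG, for RUNX either TGTGGT or the variant TGCGGT, the E-box CACGTG, and the TATA box TATAAA. CTSG lies on the minus strand (chr14:24576201-24576500), PRTN3 (chr19:840749-841048) and AZU1 (chr19:827587-827886) on the plus strand, and RNASE2 (chr14:20955237-20955536) and RNASE3 (chr14:20891135-20891434) on the plus strand as well.
CTSG: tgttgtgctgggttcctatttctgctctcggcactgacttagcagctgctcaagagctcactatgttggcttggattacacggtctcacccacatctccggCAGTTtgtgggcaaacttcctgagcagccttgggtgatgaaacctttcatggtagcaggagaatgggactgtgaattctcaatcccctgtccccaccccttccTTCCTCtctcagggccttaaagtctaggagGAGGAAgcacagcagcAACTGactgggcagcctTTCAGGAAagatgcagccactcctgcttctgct
PRTN3: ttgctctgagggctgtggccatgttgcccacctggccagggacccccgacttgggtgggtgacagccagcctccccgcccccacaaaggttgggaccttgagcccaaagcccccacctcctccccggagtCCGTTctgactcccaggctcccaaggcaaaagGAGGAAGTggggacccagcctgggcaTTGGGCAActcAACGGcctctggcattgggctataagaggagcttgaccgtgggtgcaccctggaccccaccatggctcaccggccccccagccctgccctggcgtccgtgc
AZU1: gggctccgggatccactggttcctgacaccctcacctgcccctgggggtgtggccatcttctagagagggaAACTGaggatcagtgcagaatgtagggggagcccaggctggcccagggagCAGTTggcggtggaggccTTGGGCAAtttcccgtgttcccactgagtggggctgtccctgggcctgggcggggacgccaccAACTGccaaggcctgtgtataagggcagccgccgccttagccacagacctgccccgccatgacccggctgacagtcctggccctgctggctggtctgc
RNASE2: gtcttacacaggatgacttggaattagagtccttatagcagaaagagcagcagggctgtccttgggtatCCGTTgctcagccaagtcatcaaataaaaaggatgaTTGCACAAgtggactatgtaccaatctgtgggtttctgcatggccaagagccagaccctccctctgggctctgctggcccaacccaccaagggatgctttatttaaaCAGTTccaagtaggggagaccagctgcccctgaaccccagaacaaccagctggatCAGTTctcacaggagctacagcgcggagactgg
RNASE3: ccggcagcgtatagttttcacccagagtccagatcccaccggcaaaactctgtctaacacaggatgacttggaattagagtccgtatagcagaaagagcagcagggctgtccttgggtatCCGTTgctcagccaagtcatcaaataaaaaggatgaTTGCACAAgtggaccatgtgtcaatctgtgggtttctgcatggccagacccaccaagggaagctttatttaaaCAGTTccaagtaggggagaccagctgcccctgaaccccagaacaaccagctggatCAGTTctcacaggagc

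All 300 bases of the AZU1, CTSG and RNASE2 stretches lay under peaks in the 4 libraries. The PRTN3 stretch was under a peak over its whole length in both Kasumi-1 libraries, over 13 bases in the MV4-11 control and over 0 in the MV4-11 knockdown. For RNASE3 the covered length was 300 bases in the Kasumi-1 control, the Kasumi-1 knockdown and the MV4-11 control, and 104 in the MV4-11 knockdown. The letters TTNNGNAA occurred in all 6 matched promoters (LTF included), against 36.8% of 35116 promoters of the same length. The longer PU.1 letters GAGGAAGT occurred in PRTN3 alone of the 6, starting 88 bases before its start, against 2.59% of all promoters. CTSG held GAGGAA on both strands, starting 46 and 16 bases before its start, and 27.9% of all promoters held these letters, which are also part of the longer PU.1 motif. AACTG (39.7% of all promoters) was found in AZU1, CTSG, RNASE2 and RNASE3, and AACGG (19.7%) in PRTN3, RNASE2 and RNASE3. None of the 5 printed stretches held the C/EBP palindrome (0.151% of all promoters), either RUNX form (13.1% for TGTGGT and 7.29% for its variant), the E-box (7.26%) or the TATA box (11.5%). The LTF stretch, which is not printed, did hold the RUNX variant TGCGGT, and also GAGGAA. The matched promoters held 3 to 13 CpG dinucleotides, and the median of all promoters was 14. The RNASE2 and RNASE3 stretches were alike, with 242 of 249 aligned bases identical (97.2%), and how the alignment placed reads that match both is not given in the sources used here, so that the split of signal between these genes is uncertain.

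The lists of whole libraries held 22136 to 24523 peaks on chromosomes 1 to 22, X and Y, and covered 32.7 and 33.7 Mb in control and knockdown Kasumi-1 and 27.9 and 23.0 Mb in control and knockdown MV4-11. Read depth is unknown, and the smallest peak was 357, 354, 289 and 275 bases wide in the same order. Of 9 blood and myeloid marker genes, 7 had a promoter peak in each Kasumi-1 library, 5 in the MV4-11 control and 3 in the MV4-11 knockdown. Over all genes the shares were 47.7%, 45.3%, 35.8% and 28.6% in the same order. CD33, CD34, KIT and ITGAM had none in either MV4-11 library, and CSF3R and FLT3 had none in the MV4-11 knockdown. PTPRC had 403 and 8 promoter bases in control and knockdown MV4-11. In both Kasumi-1 libraries PTPRC and KIT had 0. At promoters, markers of other cells were mostly without peaks: the 4 T cell, 5 eosinophil and basophil, and 5 fibroblast and epithelial genes had 0 in every library, the monocyte list had 1 of 4 (VCAN) in the Kasumi-1 libraries and 0 in MV4-11, the erythroid list 1 of 5 (KLF1) in all but the MV4-11 knockdown, and the B cell list 2 of 4 in Kasumi-1 and 1 of 4 (CD79A) in MV4-11. Summed over each list in the order of the libraries above, promoter bases were 417, 473, 0 and 0 for the monocyte genes, 1282, 1120, 248 and 0 for the erythroid genes and 2092, 2297, 1127 and 1128 for the B cell genes, with HBB, CD14, CD3E and COL1A1 at 0 throughout. Their wider regions were not all empty, since a region peak was found at 4, 4, 4 and 3 of the 4 monocyte genes (2481, 2464, 557 and 943 bases for CD14 and 5739, 6804, 5656 and 6422 for CSF1R). The eosinophil genes PRG2, EPX and CLC had 0 promoter bases in all 4 libraries beside the peaks at RNASE2 and RNASE3. The part of other cell types or of depth in the results below was not tested.

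Most of the 10 granule genes had peaks in both lines, where AZU1, PRTN3 and ELANE share region peaks and are counted as separate genes. A peak lay in the region of 8 of the 10 genes in control and knockdown Kasumi-1 and of 9 in control and knockdown MV4-11, where 66.1%, 65.1%, 61.5% and 55.9% of all protein-coding genes had one. A promoter peak was found at 7, 7, 8 and 6 of the 10 genes, against 47.7%, 45.3%, 35.8% and 28.6% of all genes. The median region held 3872, 4291.5, 3893.5 and 2622.5 bases under peaks, and the median over all genes was 1340, 1286, 787 and 446, although the granule gene regions were shorter (median 46388 against 67466 bases). MPO had no region peak in any library and LTF none in Kasumi-1.

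**Figure D1:**
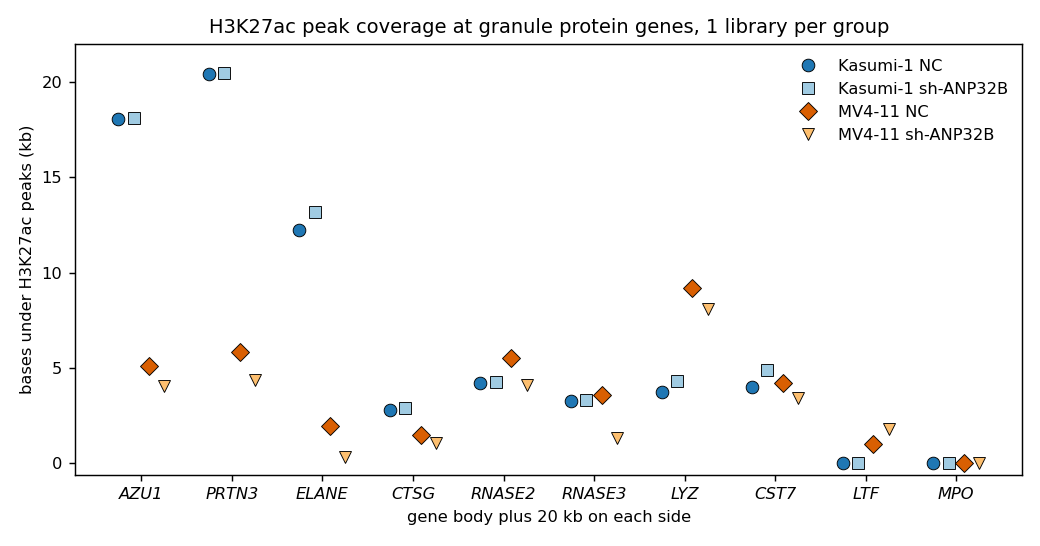
Bases under H3K27ac peaks (kb) in the body of each granule gene and 20 kb on each side, with 1 point per library and no replicates. AZU1, PRTN3 and ELANE lie between 12239 and 20454 bases in both Kasumi-1 libraries and at 5865 or less in MV4-11, LYZ is highest in the MV4-11 control (9186 bases), and MPO is at 0 throughout.

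The serine protease genes AZU1, PRTN3 and ELANE form a cluster on chromosome 19 (chr19:825097-856247), so their regions share peaks and are not independent of each other. Over the whole cluster with its flanks, peaks covered 20835 bases in the Kasumi-1 control, 20851 in the Kasumi-1 knockdown, 5865 in the MV4-11 control and 4363 in the MV4-11 knockdown. Coverage was thus 3.55 times as long in the Kasumi-1 control as in the MV4-11 control, 1.00 times its control value after knockdown in Kasumi-1, and 0.744 times in MV4-11. The whole lists had ratios of 1.17, 1.03 and 0.825 for the same comparisons.

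Proteinase 3, an elastase-like protease and the main autoantigen of vasculitis with granulomatosis, had the widest acetylated promoter of the cluster in the Kasumi-1 knockdown. A peak of 6159 bases in the Kasumi-1 control (percentile 98.7 of all peak widths of that list) and of 6981 bases in the Kasumi-1 knockdown (percentile 99.0) ran from upstream of the PRTN3 start to intron 3. In the MV4-11 control the gene had 1 peak of 396 bases (percentile 14.5), 238 bases upstream of the start, and in the MV4-11 knockdown the nearest peak was 12657 bases away. Promoter window bases were 4603, 4701, 396 and 0 in the Kasumi-1 control, the Kasumi-1 knockdown, the MV4-11 control and the MV4-11 knockdown. The PRTN3 region as a whole, which takes in the starts of AZU1, ELANE, PLPPR3 and CFD, held 20421, 20454, 5865 and 4363 bases.

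ELANE is the gene whose mutations cause cyclic and severe congenital neutropenia. By region bases it gave the log2 ratio of largest size among the 10 genes between the control libraries and after knockdown in MV4-11. This region takes in the starts of PRTN3 and CFD, and 6159 of its bases in the Kasumi-1 control were the PRTN3 peak. By promoter window bases, PRTN3 had the log2 ratio of largest size between the control libraries and RNASE3 after knockdown in MV4-11. The ELANE region held 12239 bases in the Kasumi-1 control, 13164 in the Kasumi-1 knockdown, 1960 in the MV4-11 control and 317 in the MV4-11 knockdown. In Kasumi-1 a peak of 3074 bases in the control and 2547 in the knockdown covered the start. The MV4-11 control had a peak of 420 bases that ended 883 bases before the canonical start, inside the annotated gene but outside its canonical transcript, and the knockdown library had none. The 317 bases that remained in that library were the whole of a peak just inside CFD, the complement factor D gene next to ELANE, which measured 744 bases in the MV4-11 control. With 300 bases added to both sides to keep small regions from giving extreme values, the log2 ratio of knockdown to control was -1.87 in MV4-11 and 0.10 in Kasumi-1, and that of the Kasumi-1 control to the MV4-11 control was 2.47. The MV4-11 value was -0.39 with flanks of 50 kb, short of the 1.5-fold used for calls.

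AZU1, which encodes an antimicrobial protein without protease activity, kept a peak over its start in every library. In Kasumi-1 it was part of a peak of 6959 bases in the control and 6424 in the knockdown (percentiles 99.1 and 98.7). The control peak reached into exon 1 of PLPPR3, the gene upstream, and the knockdown peak ended short of it. MV4-11 had separate peaks there, of 2859 and 1046 bases in the control and 3194 and 852 bases in the knockdown, so that the upstream peak was wider and the start peak narrower in the knockdown library. The promoter window held 4498, 4183, 1491 and 1423 bases, and the region 18063, 18101, 5121 and 4046, in the order the Kasumi-1 control, the Kasumi-1 knockdown, the MV4-11 control and the MV4-11 knockdown. Both Kasumi-1 libraries lay above both MV4-11 libraries by each measure.

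Peaks reaching outside promoter windows were also joined where at most 12.5 kb apart, as is done to find super-enhancers, and ranked by summed peak width. In Kasumi-1 a domain of 3 peaks over AZU1 and PRTN3 ranked 160 of 7694 in the control and 170 of 8087 in the knockdown. In MV4-11 the domain at this place did not reach the PRTN3 start, so that the ranks of the lines belong to unlike stretches. It held 2 peaks in the control, ranked 1686 of 9997. In the knockdown it was 1 peak of 3194 bases upstream of the AZU1 start, ranked 1434 of 9273. These ranks were the top 2.08% and 2.10% of domains in control and knockdown Kasumi-1 and the top 16.9% and 15.5% in MV4-11.

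**Figure D2:**
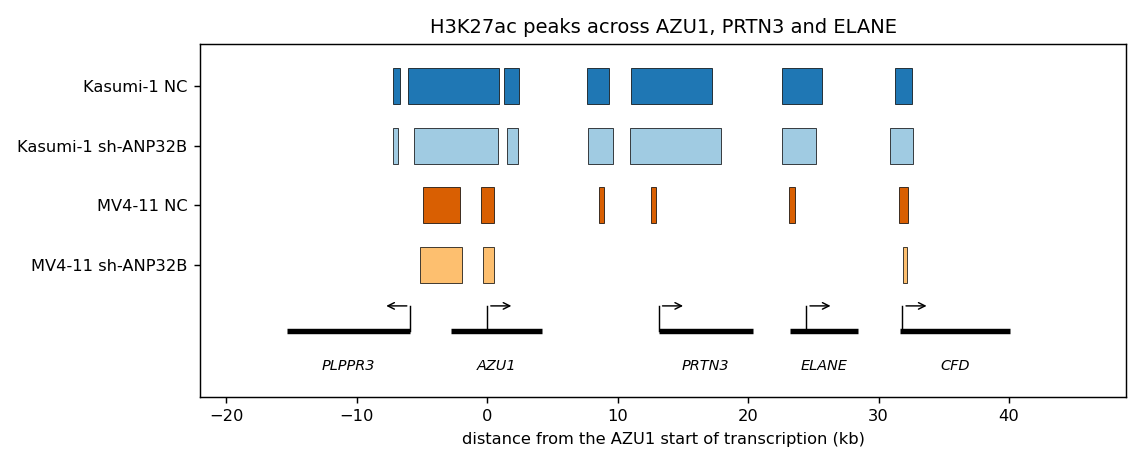
Position of H3K27ac peaks (boxes, to scale) in the 4 libraries across the serine protease cluster, by distance from the AZU1 start in kb, with gene bodies as bars and canonical starts as arrows. control and knockdown Kasumi-1 had 7 peaks each, the MV4-11 control 6 and the MV4-11 knockdown 3, and the small peaks at PRTN3 (396 bases) and ELANE (420 bases) in the MV4-11 control have no counterpart after knockdown.

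CTSG, the chymotrypsin-like protease of azurophil granules, lies apart from this cluster on chromosome 14 (chr14:24573518-24576250). Peaks in its region covered 2799 bases in the Kasumi-1 control, 2893 in the Kasumi-1 knockdown, 1503 in the MV4-11 control and 1079 in the MV4-11 knockdown. In Kasumi-1 this was 1 peak over all 5 exons. In the MV4-11 control the peak reached from 760 bases upstream of the start to intron 1, and in the knockdown library it was 785 bases wide with a further peak of 294 bases over exon 3. The log2 ratios of CTSG were 0.78 for the Kasumi-1 control to the MV4-11 control, 0.04 for knockdown in Kasumi-1 and -0.39 in MV4-11. Medians over all genes were 0.53, 0.01 and -0.33, so the order of libraries at CTSG was that of the whole lists as well as of the cluster.

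The ribonuclease genes RNASE3 and RNASE2 lie apart on the same chromosome with regions that do not overlap (chr14:20891385-20892348 and chr14:20955487-20956436). RNASE3, the gene of eosinophil cationic protein, had 3268, 3298, 3592 and 1356 bases under peaks in its region in the Kasumi-1 control, the Kasumi-1 knockdown, the MV4-11 control and the MV4-11 knockdown. The MV4-11 knockdown library stood below the other libraries. Its start peak was 297 bases wide (percentile 3.46), against 1393 in the MV4-11 control, 864 in the Kasumi-1 control and 785 in the Kasumi-1 knockdown. An upstream peak of 613 bases in the MV4-11 control had no counterpart, and a downstream peak was 1059 bases wide against 1586. The log2 ratio of the region was -1.23 in MV4-11 and 0.01 in Kasumi-1, and the MV4-11 value was -0.05 over the gene body alone, which is 964 bases long.

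RNASE2, the gene of eosinophil-derived neurotoxin, had 4209, 4269, 5535 and 4107 bases in its region in the same order. The MV4-11 control library was highest and the others were close together. A peak of 3935 bases (percentile 97.6) spanned the gene in the MV4-11 control and measured 2363 bases in the MV4-11 knockdown, whereas the Kasumi-1 libraries had 3 narrower peaks of 597 to 851 bases in the promoter window. A peak about 3 kb downstream was present in all libraries at 1605, 1640, 1600 and 1744 bases in the same order. In MV4-11 it was wider after knockdown, unlike the peak over the gene.

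LYZ, which encodes the enzyme that cleaves bacterial cell walls, had the reverse order between the lines. Its region held 3753 bases in the Kasumi-1 control, 4314 in the Kasumi-1 knockdown, 9186 in the MV4-11 control and 8117 in the MV4-11 knockdown. Both MV4-11 libraries lay above both Kasumi-1 libraries. The main part was a peak of 6571 bases in the MV4-11 control (chr12:69337478-69344048) and 6757 in the MV4-11 knockdown, from 10903 to 4333 bases upstream of the start in the control, at percentiles 99.6 and 99.8 of width. Kasumi-1 had peaks of 738 and 700 bases in the control and 819 and 1195 in the knockdown within the same stretch. The start of LYZ itself had a peak in MV4-11 alone, of 683 bases in the control and 324 in the knockdown, the latter beginning 1 base after the start. The domain ranked 491 of 9997 and 422 of 9273 in control and knockdown MV4-11, and 3124 of 7694 and 2676 of 8087 in control and knockdown Kasumi-1. The region also holds the start of YEATS4, a chromatin reader gene, with promoter window bases of 1870, 1829, 1355 and 1036, and without the promoter windows of other genes the log2 ratio of the Kasumi-1 control to the MV4-11 control was -1.90 in place of -1.23.

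CST7, which encodes the protease inhibitor of the group, had similar coverage in all libraries with flanks of 20 kb, at 3991, 4894, 4195 and 3427 bases in the order the Kasumi-1 control, the Kasumi-1 knockdown, the MV4-11 control and the MV4-11 knockdown. After knockdown in MV4-11 its log2 ratio depended on the window. It was -0.27 with these flanks, -0.16 with 50 kb, -0.63 with 10 kb and -0.83 over the gene body alone. The values for 10 kb and the gene body pass the 1.5-fold used for calls. The start lay under a peak of 2984, 3057, 2103 and 1830 bases. In the MV4-11 control there were 3 further peaks in intron 1 (778, 448 and 360 bases) and 1 of 342 bases in APMAP intron 8 that were absent from the knockdown library, which in turn had new peaks of 662 and 607 bases downstream. A peak in intron 2 of APMAP, the convergent neighbour, reached into the region in the Kasumi-1 knockdown, the MV4-11 control and the MV4-11 knockdown with widths of 1413, 3315 and 3500 bases.

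**Figure D3:**
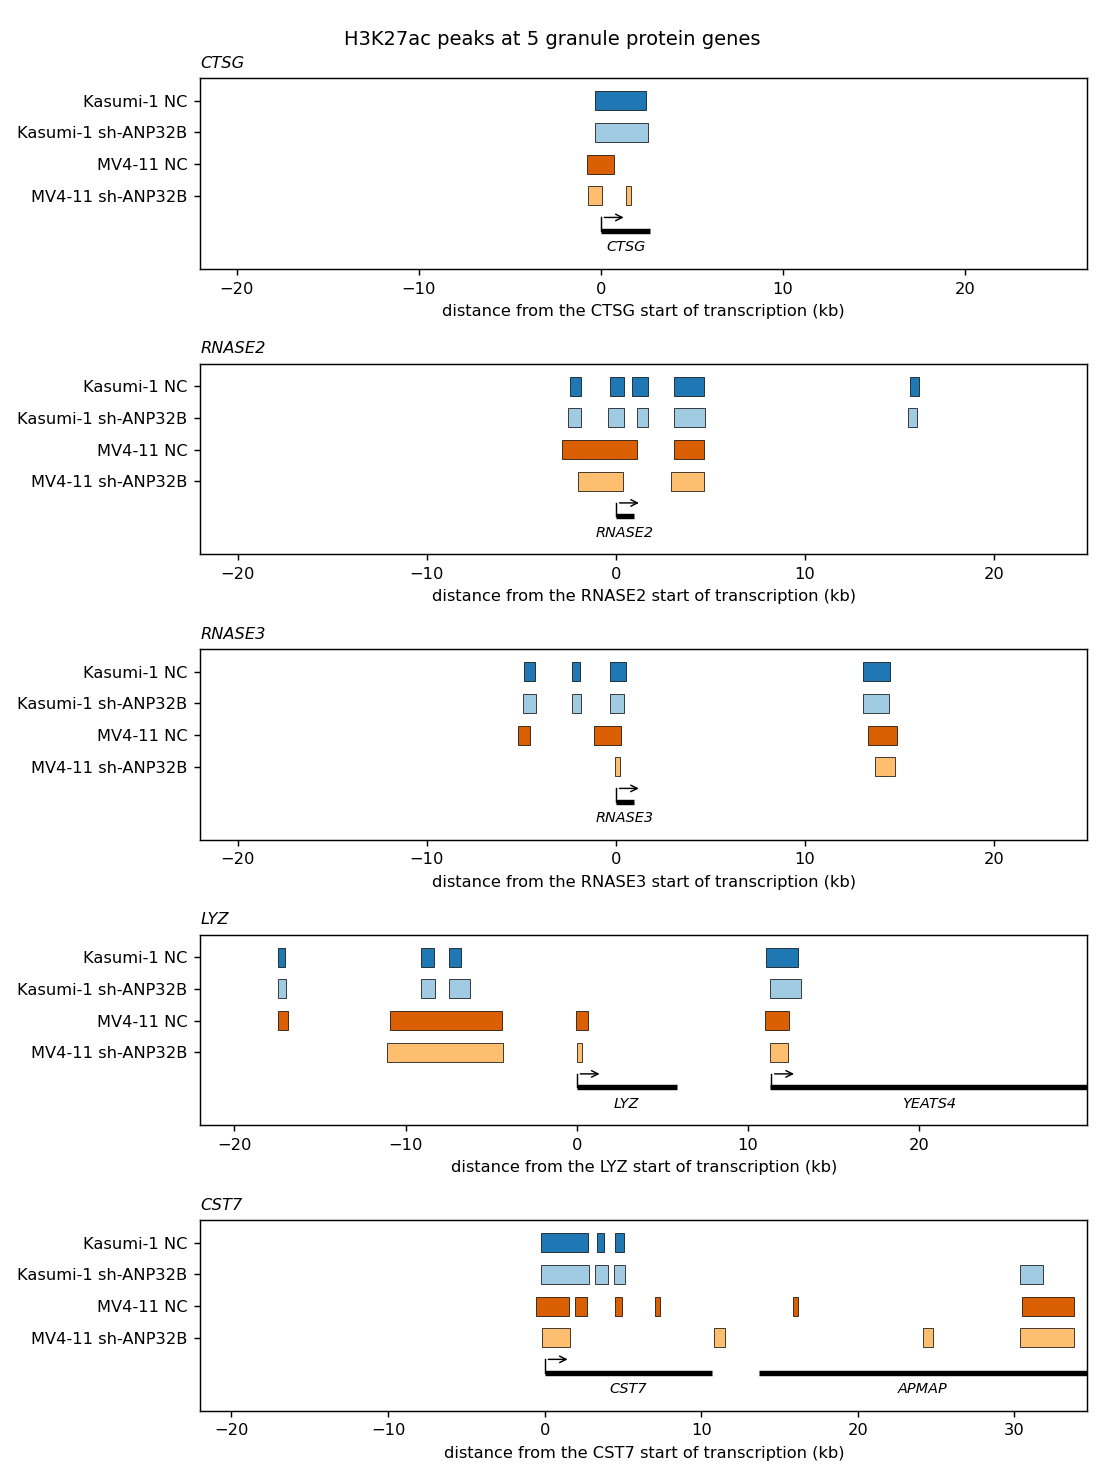
Position of H3K27ac peaks (boxes, to scale) in the 4 libraries at CTSG, RNASE2, RNASE3, LYZ and CST7, by distance from each canonical start in kb. The upstream LYZ peak is 6571 and 6757 bases wide in MV4-11, and the RNASE3 start peak goes from 1393 bases in the MV4-11 control to 297 in the MV4-11 knockdown.

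LTF, the iron-binding protein of specific granules, had no peak in its region in either Kasumi-1 library. In MV4-11 the region held 1007 bases in the control and 1818 in the knockdown, a log2 ratio of 0.70. These were a peak beyond the 3 prime end of the gene, 31718 bases from the canonical start and 1007 bases wide in the control, which was 1469 bases wide in the knockdown, and a peak of 349 bases in intron 9 found in the knockdown only. No library had a peak in the promoter window. The log2 ratio of the Kasumi-1 control to the MV4-11 control was -2.12 and turned to 0.43 with flanks of 50 kb.

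MPO, the gene of the enzyme that makes hypochlorous acid and the defining marker of the myeloid lineage in the clinic, had 0 bases under peaks in its region (chr17:58249855-58300935) in all 4 libraries. The nearest peak was 49551 bases from the start in the Kasumi-1 control, 48382 in the Kasumi-1 knockdown, 48503 in the MV4-11 control and 48675 in the MV4-11 knockdown. Without heights or reads, acetylation below the limit of the peak caller cannot be told apart from its absence.

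Knockdown was then compared over the group. Counting shared regions once, the 8 loci of the 10 genes held 38855 bases under peaks in the Kasumi-1 control, 40519 in the Kasumi-1 knockdown, 30883 in the MV4-11 control and 24267 in the MV4-11 knockdown. The ratio of knockdown to control was 1.04 in Kasumi-1 and 0.786 in MV4-11, close to the 1.03 and 0.825 of the whole lists. Over gene bodies alone the ratio in MV4-11 was 0.626. A region was called lower or higher where its bases differed by at least 1.5-fold after the added 300 bases, among genes with a region peak in either library.

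In Kasumi-1, 0 of 8 granule genes were lower and 0 were higher, where 7.26% and 4.18% of 13459 genes were. Of the 7 granule genes with a promoter peak in the control 0 had none after knockdown, and 0 of the other 3 gained a promoter peak. Over all genes 6.79% lost and 1.60% gained one. The log2 ratios ran from 0.00 to 0.28 with a median of 0.03, and the median over all genes was 0.01. All 8 were above 0 as listed, and 4 of 8 were below 0 when bases were taken per Mb covered by the list. As listed, 46.0% of all genes were below 0.

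In MV4-11, 2 of 9 granule genes were lower (ELANE and RNASE3) and 1 was higher (LTF), against 34.6% and 6.27% of 12705 genes. Promoter peaks were lost at 2 of 8 genes (ELANE and PRTN3) and gained at 0 of 2, against 24.4% and 2.45% of all genes. The log2 ratios had a median of -0.39 against -0.33 over all genes, and 8 of 9 were below 0, as were 75.9% of all genes. With flanks of 20 kb these shares are near those of the whole list. Over the gene body alone 5 of 8 granule genes were lower (ELANE, CTSG, LYZ, RNASE2 and CST7) and 1 was higher (LTF). Over all genes 33.8% and 7.76% were, and the medians there were -0.62 for the granule genes and -0.28 for all genes. Taken per Mb covered, the median over all genes was -0.09 and that of the granule genes -0.14, with 2 and 1 of 9 called lower and higher, against 26.1% and 9.76% of all genes, and LYZ turned from -0.17 to 0.10.

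**Figure D4:**
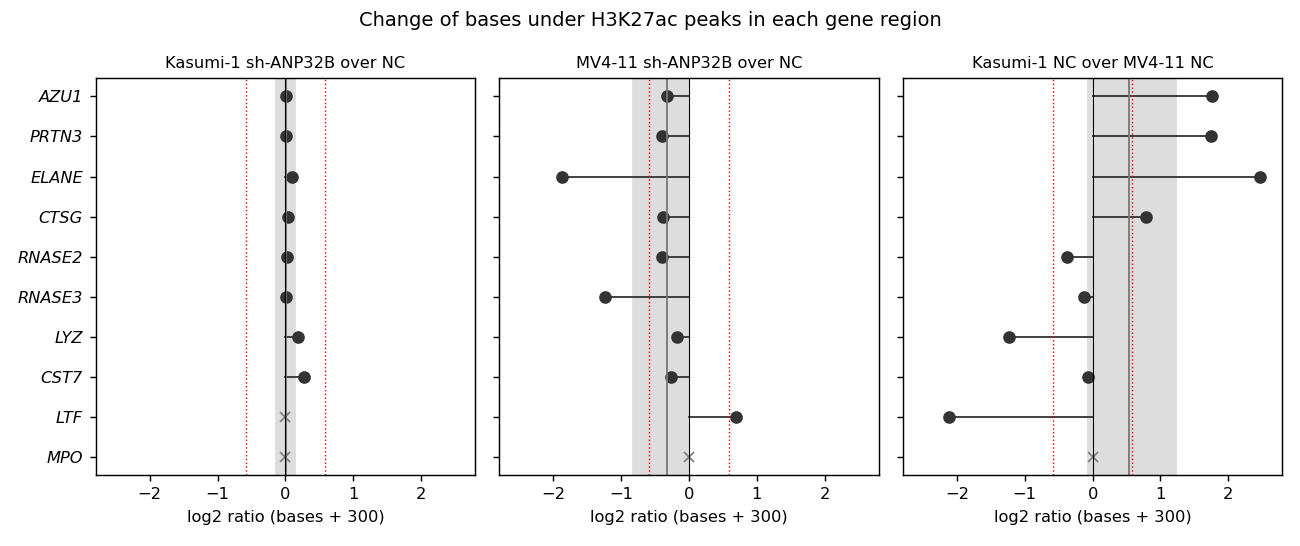
Log2 ratio of bases under peaks in each gene region (300 bases added to both libraries) for knockdown in Kasumi-1, knockdown in MV4-11, and the Kasumi-1 control over the MV4-11 control, with crosses for genes without a peak in either library. The grey band and line are the quartiles and median of all tested genes and the dotted red lines mark 1.5-fold: all Kasumi-1 knockdown points lie between 0.00 and 0.28, and ELANE (-1.87) and RNASE3 (-1.23) lie left of the line in MV4-11.

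Single peaks showed the same contrast between the lines. In Kasumi-1, 24 of the 24 control peaks at the granule loci were kept and 0 of the 25 knockdown peaks were gained, where 91.0% of control peaks were kept and 13.2% of knockdown peaks gained over the whole lists. In MV4-11, 14 of 23 control peaks were kept, 9 were lost, and 4 of 18 knockdown peaks had no control counterpart. Over the whole MV4-11 lists 70.9% of control peaks were kept and 17.7% of knockdown peaks were gained. The widest of the lost peaks was 778 bases (in CST7 intron 1) and the widest of the gained 662. Of 14 peaks matched between the MV4-11 lists 9 were narrower and 5 wider, with a median change of -296 bases, against 63.4% narrower and a median of -94 over all matched peaks. In Kasumi-1, 8 of 24 were narrower and 16 wider, with a median change of 54.5 bases against 25 over all.

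Matched peaks over the start of a granule gene were narrower throughout after knockdown in MV4-11, while the other matched peaks at these loci went both ways. All 6 start peaks of the MV4-11 control were narrower in the knockdown library, those of LYZ by 359 bases, RNASE3 by 1096, RNASE2 by 1572, CTSG by 718, AZU1 by 194 and CST7 by 273. Over all genes with a start under a control peak in MV4-11, 64.4% had a narrower peak, 18.7% had lost it and 16.5% had a wider one. Most start peaks kept over all genes were thus narrower too. No such share was taken for peaks away from starts, so the split is not shown to be particular to granule genes. Away from these starts, the downstream RNASE3 peak and those at the starts of CFD and YEATS4 were narrower too, and the 5 wider peaks were the upstream LYZ peak, the downstream RNASE2 peak, the peak between PLPPR3 and AZU1, the APMAP intron 2 peak and the LTF peak beyond the gene. In Kasumi-1, 3 of 7 start peaks were narrower (AZU1, ELANE and RNASE3) and 4 wider, with PRTN3 wider by 822 bases and AZU1 narrower by 535, and over all genes 45.5% were narrower and 49.6% wider.

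The lines also differed from each other. Between the control libraries, ELANE, AZU1, PRTN3 and CTSG were called higher in Kasumi-1 (4 of 9) and LYZ and LTF lower (2 of 9), against 47.8% higher and 13.5% lower over 13994 genes. The share called higher was thus near that of all genes, while the median log2 ratio was -0.07 over the granule genes and 0.53 over all genes. The direction of this difference depended on the window. Over gene bodies alone the medians were 0.93 for the granule genes and 0.42 for all genes, and with flanks of 50 kb 0.11 and 0.52. Per Mb covered, 3 were higher (without CTSG) and 3 lower (with RNASE2), and the shares of all genes were 39.5% and 16.8%. The higher calls at ELANE, AZU1 and PRTN3 share peaks and stand for 1 locus. A promoter peak was present in the MV4-11 control and not in the Kasumi-1 control at 1 of 8 genes (LYZ), against 3.89% of all genes, and the reverse was found at 0 of 2 genes, against 20.7%. Over the 8 loci the Kasumi-1 control had 1.26 times the bases of the MV4-11 control, and without the serine protease cluster 0.720 times (18020 against 25018). Of the control peaks, 19 of 24 in Kasumi-1 and 19 of 23 in MV4-11 overlapped a peak of the other line's control, as did 67.0% and 65.2% of all control peaks.

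Other genes of granule biology were taken from lists of 28 other granule proteins, 17 genes of granule packaging and protease control, and 17 transcription factors that regulate granule genes. The other granule genes had promoter peaks at 11, 11, 10 and 7 of 28 in the Kasumi-1 control, the Kasumi-1 knockdown, the MV4-11 control and the MV4-11 knockdown, where 47.7%, 45.3%, 35.8% and 28.6% of all genes had one. CRISP3, TCN1, MMP8, OLFM4, HP, PGLYRP1 and ARG1 had 0 region bases in every library, whereas CAMP, the cathelicidin gene, had 5575, 5916, 3184 and 1676 and CHI3L1 6864, 6036, 3865 and 1998. In Kasumi-1, 1 of 20 was lower and 4 higher (median log2 ratio -0.01, against 7.26%, 4.18% and 0.01 over all genes). ARSA, a lysosomal sulfatase, went from 872 region bases to 0, SLPI, a protease inhibitor, from 0 to 368, and ABCA13 from 0 to 386. In MV4-11, 8 of 19 were lower and 4 higher (median -0.52, against 34.6%, 6.27% and -0.33 over all genes). Of the higher calls, S100A8 and S100A12 both went from 0 to 440 bases. Both are on chromosome 1 with the same region bases in every library (696, 608, 0 and 440), so these calls are not independent of each other. The promoter windows of GUSB, GAA and PRSS57 went from 720, 713 and 979 bases under peaks to 0 after knockdown. These were the only losses among the 10 listed genes with a promoter peak in the MV4-11 control, against 24.4% lost over all genes. The region of CEACAM8 went from 2288 bases to 0, that of LCN2 from 729 to 0 and that of S100A9 from 558 to 0.

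Packaging and protease control genes had promoter peaks at 16, 16, 13 and 11 of 17 in the same order of libraries, where 47.7%, 45.3%, 35.8% and 28.6% of all genes had one. In Kasumi-1, 0 of 17 were lower or higher (median 0.01, against 7.26%, 4.18% and 0.01 over all genes). The largest log2 ratios were at HAX1 (-0.48), SERPINA1 (0.33) and SERPINB8 (0.33). In MV4-11, 6 of 16 were lower and 0 higher (median -0.27, against 34.6%, 6.27% and -0.33 over all genes), a share of lower calls near that of all genes. CSF3R, the receptor for granulocyte colony-stimulating factor, and AP3B1, a subunit of the adaptor that sorts cargo to granules, had 1321 and 921 promoter bases in the MV4-11 control and 0 after knockdown. These were the only losses among the 13 listed genes with a promoter peak in the MV4-11 control, against 24.4% lost over all genes. The region of CLPB went from 4425 to 1375 bases and that of JAGN1 from 1064 to 324. CTSC, the cathepsin that activates the serine proteases and is held in check by cystatin F, had 1996, 2065, 2542 and 1288 promoter bases. SRGN, the proteoglycan core that holds proteases in the granule, had 1706, 2135, 2814 and 4397, and was highest in the MV4-11 knockdown library.

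The regulators had promoter peaks at 15, 13, 13 and 12 of 17, where 47.7%, 45.3%, 35.8% and 28.6% of all genes had one. In Kasumi-1, 0 of 17 were lower or higher (median 0.06, against 7.26%, 4.18% and 0.01 over all genes). The promoter windows of IRF8 and RARA went from 357 and 390 bases to 0. These were the only losses among the 15 regulators with a promoter peak in the Kasumi-1 control, against 6.79% lost over all genes. Their region totals in control and knockdown were 21998 and 22968 bases for IRF8 and 22655 and 24609 for RARA. KLF6 (0.50), CEBPB (-0.44) and RUNX2 (0.39) had the largest log2 ratios. In MV4-11, 4 of 17 were lower and 0 higher (median -0.23), against 34.6% and 6.27% of all genes. CEBPA, the C/EBP factor needed to enter the granulocyte lineage, had 3148 and 3103 promoter bases in control and knockdown Kasumi-1, 1722 in the MV4-11 control and 0 in the MV4-11 knockdown. It was the only loss among the 13 regulators with a promoter peak in the MV4-11 control, against 24.4% lost over all genes. Its region held 19221, 19045, 11802 and 8040 bases in the same order, with a log2 ratio of -0.54 in MV4-11 that was short of the 1.5-fold used for calls. LYL1 (-0.85), RUNX2 (-0.82) and MYB (-0.77) had the largest log2 ratios of the region there. CEBPE, which drives the specific granule genes, had 3028, 3065, 1816 and 994 promoter bases, and SPI1, the gene of PU.1, 3084, 3042, 3008 and 3127, close to one another in all 4 libraries.

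**Figure D5:**
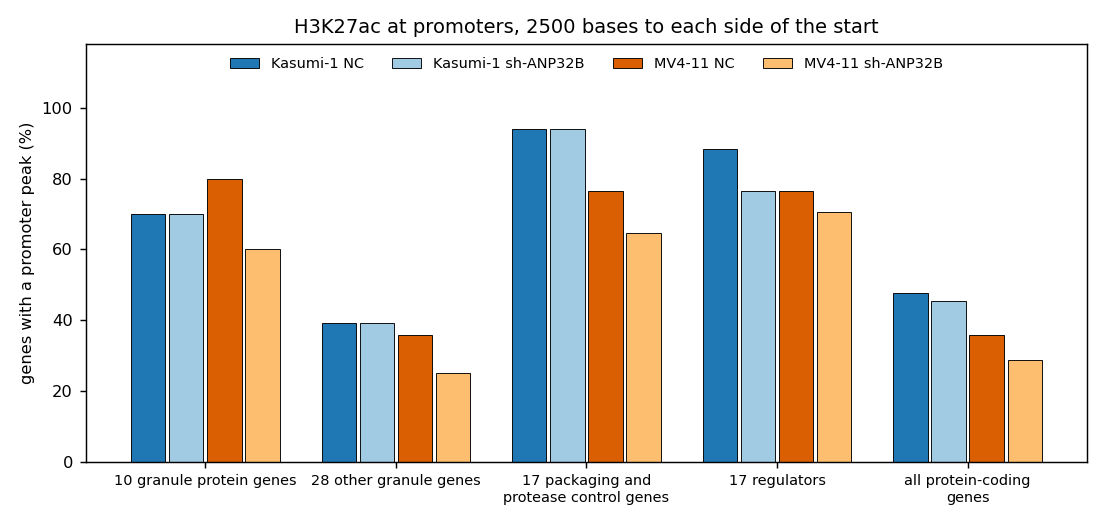
Share of genes (%) with an H3K27ac peak within 2500 bases of the canonical start, by gene list and library, with 1 library per bar. Granule protein genes had 7, 7, 8 and 6 of 10 and the other granule genes 11, 11, 10 and 7 of 28, and the last group shows all protein-coding genes (47.7%, 45.3%, 35.8% and 28.6%).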

How the data were processed

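H3K27ac CUT&Tag libraries of Kasumi-1 and MV4-11 cells (NC and sh-ANP32B, 1 each) were analysed. Groups were taken from the sample titles. According to the submitters' processing notes, the authors aligned reads to hg38 with Bowtie2 2.4.4 and called peaks with MACS3 3.0, whereas the methods text names MACS2 and another Bowtie2 version. Duplicates were removed with Picard, replicates were merged before calling, and the q-value limit was 0.01. Whether IgG served as control is not given in the sources used here. The deposited lists give the position (from 1) and width of each peak, without height, q-value or read totals, so that depth is unknown and a narrow peak near the caller's limit may be missed in a shallower library.

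Genes, canonical starts and exons were from GENCODE v44 on hg38. A peak counted where at least 1 base lay in the region or window, and was lost or gained where no base overlapped the other list of the line. Matched peaks were each other's only partner. Width percentiles were taken within each list. Sums and calls were computed with python 3.11.15, numpy 2.4.6 and pandas 2.3.3, and figures with matplotlib 3.10.9. The interval sums were tested on simulated peaks. The granule genes, lists and rules were chosen with earlier results of these data known. Named were all 10 genes, genes starting inside their regions and, from each list, those that lost or gained a promoter peak in a line and the 3 with the largest log2 ratios. CRISP3, TCN1, MMP8, OLFM4, HP, PGLYRP1, ARG1, CAMP, CHI3L1, S100A8, S100A12, CTSC, SRGN, CEBPE, SPI1 and the marker genes named were chosen after their values were seen. The rule for genes patterned like MPO was void, as MPO had no peak. One gene of the erythroid marker list is not reported here and was left out of that list's counts.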

Additional observations from a re-analysis of the deposited data

Results flagged for a closer look

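The region totals of ELANE and RNASE3 had log2 ratios of opposite sign in the lines after knockdown, with 1 library per group and the Kasumi-1 values close to 0. The log2 ratio of region bases (knockdown to control) was 0.10 in Kasumi-1 and -1.87 in MV4-11 for ELANE, and 0.012 in Kasumi-1 and -1.23 in MV4-11 for RNASE3. This contrast between the lines was not tested. The RNASE3 value in Kasumi-1 is a difference of 30 bases and turned to -0.03 per Mb covered, and the median of all genes was 0.01 in Kasumi-1 and -0.33 in MV4-11. With bases taken over the gene body alone ELANE was at -0.26 in Kasumi-1 and -1.24 in MV4-11, and RNASE3 at -0.13 and -0.05. Promoter window bases were also lower after knockdown in both lines. For ELANE the window held 3074 bases in the Kasumi-1 control, 2547 in its knockdown, 420 in the MV4-11 control and 0 in its knockdown, and for RNASE3 it held 1294, 1246, 1393 and 297 in the same order.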

How the results depend on the processing

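Alternatives changed the flank, the start site, the window, the peaks counted, the overlap, the scaling or the fold. Of 138 recomputed group results 127 stayed close (counts and ratios within 1.5 times), 11 moved and 0 reversed. Of 204 recomputed log2 ratios of single genes 184 stayed close, 19 moved and 1 called ratio reversed. In all, 23 of the 204 changed sign: some at ELANE, AZU1, PRTN3, RNASE2 and RNASE3 in Kasumi-1 after knockdown, where the reported ratios were 0.00 to 0.10, 1 at LYZ in MV4-11, and some at RNASE3, LTF and CST7 between the controls.

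In Kasumi-1, 1 gene was higher after knockdown with flanks of 50 kb (3.53% of all genes) and 1 with only peaks of at least 1000 bases (7.66%). In MV4-11, 4 of 9 genes were lower with flanks of 10 kb (35.3% of all genes) and 5 of 8 over the gene body alone (33.8%). There 0 were higher with only peaks of at least 1000 bases, with a common minimum width of 357 bases and joining gap of 358, or with a limit of 2-fold. Between the control libraries, the ratio of bases over the loci was 2.34 over gene bodies alone, and 4 genes were lower in Kasumi-1 with only peaks of at least 1000 bases (12.8% of all genes). With such peaks alone, 5 genes had a promoter peak in the MV4-11 control and 3 in the knockdown. LTF reversed to 0.43 (control Kasumi-1 to control MV4-11) with flanks of 50 kb. Apart from what the construction of an alternative shows, the cause was not tested.

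No paired analysis was possible because each group had 1 library. A stricter q-value was not run, since the lists hold none per peak. Without read depth, narrow peaks such as those of PRTN3 (396 bases) and ELANE (420 bases) in the MV4-11 control limit what a lost peak can show.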
